A study of Homo sapiens with 13 samples.

Results

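RUNX1-only gene-body peaks are the called RUNX1 peaks of MOLM-13 cells that overlapped no called PTBP1 peak, overlapped a gene of any type in GENCODE version 44 and lay more than 1 kb from the annotated 5′ end (TSS) of every gene. The rule selected 1513 peaks, which were 19.7% of the 7688 RUNX1 peaks and 49.5% of the 3057 RUNX1 peaks without a PTBP1 overlap. Both peak lists together held 17058 peaks. Members were thus chosen by the peak calls and their positions, so their strength, width, distance from PTBP1 peaks and the peaks at the TSS of their host genes are described without a test. Tests were run on the DNA sequence at the summit and on annotation inside the gene, beyond the gene spans and 5′ ends that the rule used. Members were compared with the 1086 gene-body RUNX1 peaks that did overlap a PTBP1 peak (shared gene-body peaks), with 633 RUNX1-only intergenic peaks and with 911 RUNX1-only peaks within 1 kb of a TSS.

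The cells were MOLM-13, an established line grown from acute myeloid leukemia, and the labels give no treatment or genetic change. CUT&Tag, where antibody-bound transposase inserts sequencing adapters into DNA near the protein, was run for RUNX1 and PTBP1 in 2 biological replicates each, beside 1 IgG library. The labels name a RUNX1 antibody from Abcam and a PTBP1 antibody from Thermo. The study's supplementary antibody list gives Invitrogen for both in CUT&Tag, and this difference was not resolved. The 13 libraries of the series also included CUT&RUN of both proteins and of H3K27me3, which were not analysed here. A single peak list per target on the hg38 build was used, so the spread between replicates is unknown, and intervals and p-values cover counting over peaks in this line only. Peak lists hold no expression values, so the cell type could not be checked against marker genes. The fold enrichment is the peak caller's ratio of fragments at the summit to background, each with 1 added, and with the deposited p-value it fixed a whole number of fragments per summit. Fragment totals of the libraries are not known from these lists.

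RUNX1 is a transcription factor of blood stem and progenitor cells. Its Runt domain binds TGTGGT or TGCGGT in DNA, more tightly when joined to its partner CBFB, and much of its binding lies at enhancers, which often sit in introns or between genes and which it shares with factors such as PU.1, C/EBP proteins, MYB and AP-1. PTBP1 regulates splicing by binding pyrimidine-rich RNA.

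The RUNX motif (TGTGGT or TGCGGT, on either strand) was sought within 50 bases of each summit, a window centred on it. Among the 15 members of highest fold enrichment on the usual background, 11 held the motif, and their windows are printed because the comparisons below turn on this motif. They are hg38 reference sequence of the plus strand, 5′ to 3′, with the motif in capitals, so that ACCACA and ACCGCA are motifs on the minus strand. A single motif was found at 4 of these summits, in EGFLAM (chr5:38453619-38453719), OTUD7B (chr1:149997768-149997868), LINC01954 (chr2:10864077-10864177) and MFSD2B (chr2:24047541-24047641).
EGFLAM: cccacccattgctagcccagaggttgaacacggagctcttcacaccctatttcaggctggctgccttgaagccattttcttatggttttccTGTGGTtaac
OTUD7B: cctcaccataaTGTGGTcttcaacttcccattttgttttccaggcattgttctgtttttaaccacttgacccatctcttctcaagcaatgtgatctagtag
LINC01954: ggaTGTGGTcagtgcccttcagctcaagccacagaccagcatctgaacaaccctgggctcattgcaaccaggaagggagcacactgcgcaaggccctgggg
MFSD2B: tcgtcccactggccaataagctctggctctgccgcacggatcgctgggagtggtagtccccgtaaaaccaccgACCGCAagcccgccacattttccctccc

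Motif pairs were found at MED12L (chr3:151170076-151170176), ZNF532 (chr18:58887715-58887815), LINC03002 (chr6:134633113-134633213), ENSG00000288520 (chr6:154169612-154169712) and ARHGEF12 (chr11:120344457-120344557). The starts of the paired motifs were 11 bases apart in MED12L, 23 in ARHGEF12, 39 in LINC03002, 49 in ZNF532 and 63 in ENSG00000288520. In MED12L, LINC03002 and ARHGEF12 both motifs lay on the plus strand, and in ZNF532 and ENSG00000288520 they faced opposite ways.
MED12L: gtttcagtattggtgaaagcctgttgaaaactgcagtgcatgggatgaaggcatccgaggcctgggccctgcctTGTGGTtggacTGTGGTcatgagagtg
ZNF532: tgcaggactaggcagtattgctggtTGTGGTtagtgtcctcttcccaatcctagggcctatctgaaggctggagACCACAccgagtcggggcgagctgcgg
LINC03002: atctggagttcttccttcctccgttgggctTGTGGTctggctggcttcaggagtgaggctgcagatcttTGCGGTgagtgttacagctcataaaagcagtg
ENSG00000288520: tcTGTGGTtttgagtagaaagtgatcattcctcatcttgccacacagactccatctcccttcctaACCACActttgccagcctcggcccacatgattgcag
ARHGEF12: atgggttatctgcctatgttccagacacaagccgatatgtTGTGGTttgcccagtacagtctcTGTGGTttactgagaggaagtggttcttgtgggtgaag

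Motif triplets were found at GALNT18 (chr11:11416696-11416796) and ANKFY1 (chr17:4207076-4207176), where neighbouring motifs started 9 and 24 bases apart, respectively, and all lay on the minus strand. The largest number of motifs in a window was 8. The members rich in motifs are represented by LINC00313 (chr21:43467998-43468098, 8 motifs) and GRK1 (chr13:113672369-113672469, 7 motifs). Both are printed because their motifs sit in short repeated units on a single strand.
GALNT18: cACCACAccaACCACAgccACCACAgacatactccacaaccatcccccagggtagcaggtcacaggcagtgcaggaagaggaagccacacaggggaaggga
ANKFY1: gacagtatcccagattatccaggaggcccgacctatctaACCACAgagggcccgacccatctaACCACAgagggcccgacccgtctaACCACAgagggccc
LINC00313: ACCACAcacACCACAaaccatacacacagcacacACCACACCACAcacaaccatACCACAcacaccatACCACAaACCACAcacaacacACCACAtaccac
GRK1: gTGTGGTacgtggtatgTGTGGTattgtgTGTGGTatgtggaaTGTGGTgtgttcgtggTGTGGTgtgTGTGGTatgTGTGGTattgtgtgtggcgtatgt

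Members were weaker and narrower than shared gene-body peaks. Their median fold enrichment was 12.8 (quartiles 9.77 and 18.8, range 2.80 to 165), against 16.5 in shared gene-body peaks, 14.3 in RUNX1-only intergenic peaks and 11.3 in RUNX1-only TSS peaks. The median summit held 17 fragments (range 8 to 258), and the median width was 510 bases (quartiles 382 and 705), against 21.5 fragments and 724 bases in shared gene-body peaks. Together members covered 894839 bases. A background above 1.5 times the usual 0.330 fragments was found at 95 members (6.28%) and at 37 shared gene-body peaks (3.41%). GC content of the summit window had a median of 51.5% in members and 61.4% in shared gene-body peaks.

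Distances from members to the nearest PTBP1 peak ran from 43 to 5180910 bases, and no reference distance was computed. The PTBP1 list had a usual background of 0.720 fragments and its weakest summit 11 fragments, against 0.330 and 8 in the RUNX1 list, so a member has no called PTBP1 peak, which does not show that PTBP1 was absent. The nearest PTBP1 peak was at a median of 83863 bases (quartiles 19793 and 268584), 705 members (46.6%) lay over 100 kb from it and 33 (2.18%) under 1 kb. The members nearest to a PTBP1 peak were in DGKZ (43 bases), RASA3 (43 bases) and MACROD1 (122 bases), and the gene-body peaks just outside the rule, in IL23A, SLC19A1 and CABIN1, overlapped a PTBP1 peak by 9 bases each. At the TSS limit, members in HES1, ITGB7 and PFKFB3 lay 1009, 1010 and 1017 bases from a TSS, and peaks in PLEKHA8, EED and PRDM1 were left out at 999, 985 and 985 bases. At the limit of the peak caller, members in DHRS4L2, LTBP2 and DGLUCY had a −log10 q-value of 7.25, a fold enrichment of 6.77 and 8 fragments.

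The RUNX motif stood at the summits of 650 of 1513 members (43.0%, 95% Wilson interval 40.5 to 45.5). In windows centred 500 bases to the left of the same summits it was found in 146 (9.65%), and 583 members had it only at the summit against 79 only in the flank (two-sided exact sign test, p = 7.45e-96). Across all RUNX1 peaks the share was 24.2%. Members held the motif more often than shared gene-body peaks, at 222 of 1086 (20.4%, 18.1 to 22.9), with an odds ratio of 2.93 (two-sided Fisher's exact test, Benjamini-Hochberg adjusted over 3 comparisons, p = 1.22e-33). They also held it more often than RUNX1-only TSS peaks, at 223 of 911 (24.5%, odds ratio 2.32, adjusted p = 2.13e-20 by the same exact test). Median GC content was 67.3% in these TSS peaks and 51.5% in members, and in windows of 40 to 60% GC the difference fell from 18.5 to 8.46 percentage points (adjusted p = 0.0184, exact). RUNX1-only intergenic peaks held it more often still, at 317 of 633 (50.1%, odds ratio for members 0.751, adjusted p = 0.00272 by the same exact test), but this last difference did not pass once peaks within 1 kb of any annotated transcript start were left out (-4.64 percentage points, adjusted p = 0.0620).

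The motif clustered beside the member summit rather than on it. In bins of 25 bases, 10.6% of members had a motif in the bin at the summit, 15.0% in the bin 25 bases to the left and 16.2% in the bin 25 bases to the right, falling to 12.2% and 12.9% at 50 bases and to 2.78% at 500 bases to the left. RUNX1-only intergenic peaks had the same shape, with 10.6% at the summit bin and 18.3% and 19.1% in the bins beside it. The profile of shared gene-body peaks was lower throughout the summit region, at 4.79% in the summit bin and 5.99% and 6.81% beside it. The nearest motif lay at a median of 62.5 bases from the summit in members and 255 bases in shared gene-body peaks.

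**Figure D1:**
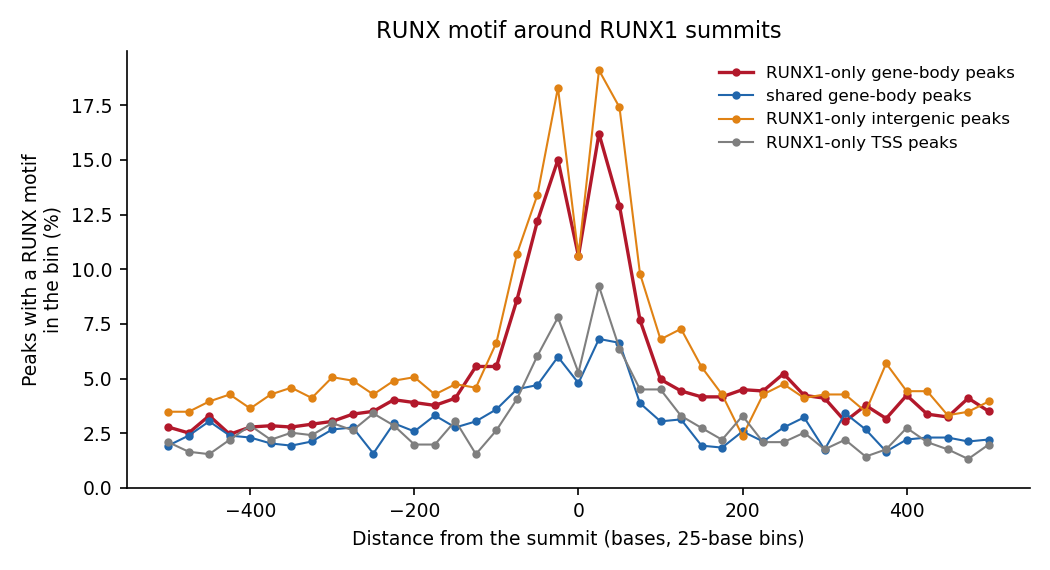
Share of peaks (%) with a RUNX motif in each 25-base bin, by distance from the summit (bases), for the 4 classes of RUNX1 peaks. The RUNX1-only gene-body line reaches 15.0% and 16.2% on either side of the summit with 10.6% at the summit itself, and lies above shared gene-body peaks, which reach 5.99% and 6.81%.

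Motif content rose with the strength of the members. When members were split at the quartiles of their fold enrichment into 4 bands, the share with the motif was 25.2% of 318, 40.8% of 392, 45% of 413 and 57.4% of 390 from the weakest to the strongest band. Members at or above the upper quartile held the motif in 224 of 390 and those at or below the lower quartile in 105 of 402 (26.1%), with an odds ratio of 3.82 (two-sided Fisher's exact test, p = 3.40e-19). Within the same fold bands, shared gene-body peaks held it in 9.49%, 9.38%, 17.4% and 31.0%, so the members' share was higher in each of the 4 bands. The gap was also present on both sides of a split by transcript starts. Among peaks within 1 kb of a start, 32.4% of 296 members and 16.3% of 534 shared gene-body peaks had the motif, and among those with no start nearby, 45.5% of 1217 members and 24.5% of 552 shared peaks.

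**Figure D2:**
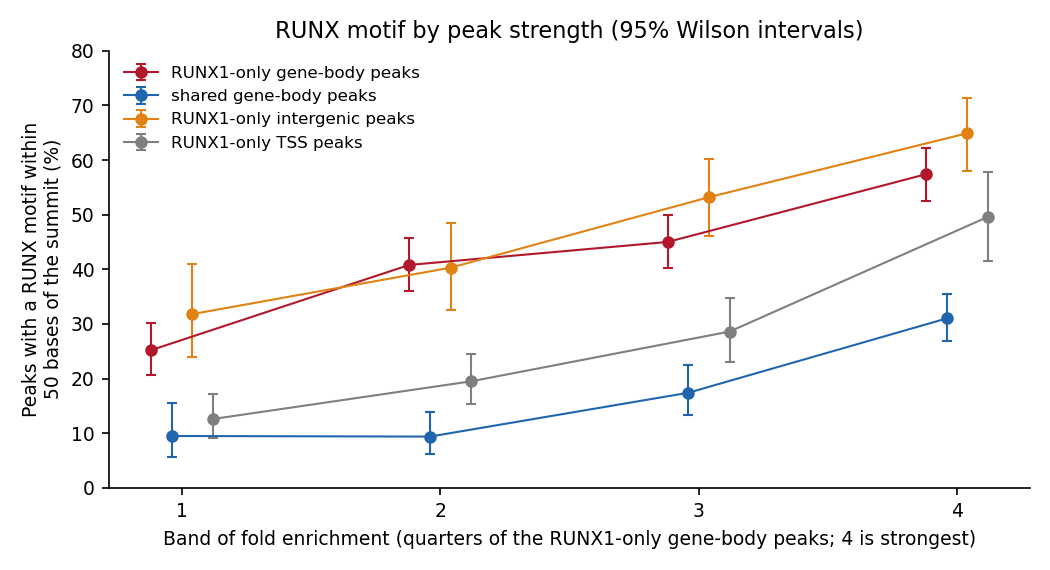
Share of peaks (%) with a RUNX motif within 50 bases of the summit, with 95% Wilson intervals, in 4 bands of fold enrichment set by the quartiles of the RUNX1-only gene-body peaks. That class rises from 25.2% to 57.4% and shared gene-body peaks from 9.49% to 31.0%.

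Both forms of the motif contributed. TGTGGT was found at 35.4% of member summits and 8.13% of flanks, and TGCGGT, which holds a CpG, at 9.45% and 1.72%. In RUNX1-only TSS peaks the balance differed, with TGTGGT at 12.7% and TGCGGT at 13.2% of summits. Read on the strand of the motif, the base after TGTGGT or TGCGGT was T at 44.9% of 888 motifs at member summits against 27.1% of 170 in flanks, and the base before it was C at 36.8% against 23.5%. Motifs and not peaks were counted here, so members with several motifs, some of them in short repeated units, entered more than once. No motif was found at 863 members, 1 at 480, 2 at 136 and 3 or more at 34 (2.25%, against 0.368% of shared gene-body peaks). Median fold enrichment was 12 without a motif, 13.9 with 1, 17.3 with 2 and 16.2 with 3 or more. All motifs pointed the same way in 81 of the 136 members with 2 motifs (59.6%) and in 28 of the 34 with 3 or more (82.4%), and 32 of these 34 were intronic.

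Among 438 members with exactly 1 motif and host genes on a single strand, the motif read TGTGGT or TGCGGT on the coding strand of the host gene in 256 (58.4%, 53.8 to 63.0), more than an even split (two-sided exact binomial test, p = 4.73e-04). Flanks 500 bases to either side, drawn from the members as a whole and not only these 438, were close to this share. They stood at 162 of 283 (57.2%, 51.4 to 62.9). The summit and flank shares were not told apart by a two-sided Fisher's exact test chosen after the summit share was seen (p = 0.758), so the strand preference was not shown to be particular to the summits.

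Sequences that other blood cell factors bind were also found at member summits. Of 12 motifs, searched on both strands, 7 were more frequent at the summit than in the flank 500 bases to the left and 0 less frequent, also before adjustment, by two-sided exact sign tests with Benjamini-Hochberg adjustment over the 12. The PU box GAGGAA, bound by PU.1, was at 18.4% of summits and 9.52% of flanks (adjusted p = 5.69e-11 by the exact test), and the AP-1 site TGANTCA at 5.82% and 2.25% (adjusted p = 3.27e-06, exact). The other ETS site searched, CCGGAA, which shares GGAA with the PU box, was at 2.45% and 0.793% (adjusted p = 0.00188, exact). The MYB sites CAACNG or TAACNG stood at 24.1% and 19.0%, the E-box CAGCTG at 8.00% and 5.29%, the C/EBP site TTGCNNAA at 6.15% and 3.83% and the GC box GGGCGG, bound by SP factors, at 6.01% and 3.77%. Where TG or TA follows TGCGGT, the opposite strand holds a MYB site, so the same bases could count as both motifs. The remaining 5 did not pass the test. They were the GATA site AGATAA (3.57% and 4.69%), the E-box CAGATG (6.68% and 8.00%), the MEIS site TGACAG (6.61% and 6.74%), the CCAAT box CCAAT (9.05% and 11%) and the CTCF core, CCA, AG and GGC with 2 free bases between each (0.793% and 0.463%). With the flank on the right, C/EBP no longer passed (1.32 points), while GATA (-1.85 points, adjusted p = 0.0263) and the CCAAT box (-2.84 points, adjusted p = 0.0246) passed as less frequent at the summit by the same exact test. With summit windows of 40 to 60% GC, and the GC of the flanks not restricted, neither ETS (0.856 points) nor the GC box (-1.24 points) passed. The GC box also did not pass without peaks near transcript starts (0.493 points, adjusted p = 0.667, exact).

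**Figure D3:**
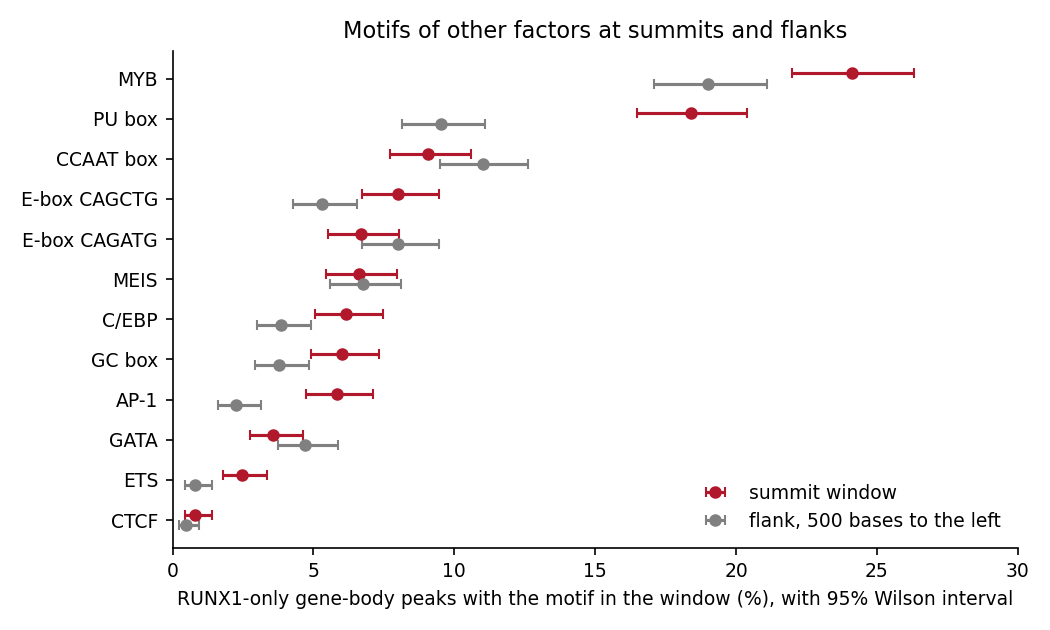
Share of RUNX1-only gene-body peaks (%) with each of 12 motifs in the summit window (red) and in a window 500 bases to the left (grey), with 95% Wilson intervals. The PU box stands at 18.4% against 9.52% and AP-1 at 5.82% against 2.25%.

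The PU box was as frequent at members without a RUNX motif (162 of 863, 18.8%) as at those with it (116 of 650, 17.8%), with overlapping Wilson intervals of 16.3 to 21.5 and 15.1 to 21. MYB sites stood at 27.8% of members with a RUNX motif (24.5 to 31.4) and 21.2% without (18.6 to 24.1), and the GC box at 3.85% and 7.65%. Bases that TGCGGT and a MYB site had in common were not taken out, and their part in the MYB shares was not tested. Across all RUNX1 peaks, the PU box was at 12.4%, the MYB sites at 19.7%, AP-1 at 3.08%, C/EBP at 3.99%, GATA at 2.29%, the MEIS site at 5.19%, CAGCTG at 6.40%, CAGATG at 4.98%, ETS at 6.50%, the CCAAT box at 13.4%, the CTCF core at 0.767% and the GC box at 28.7%.

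Against shared gene-body peaks, members held more PU boxes (18.4% against 13.9%, adjusted p = 0.00802), MYB sites (24.1% against 17.6%, adjusted p = 2.73e-04) and GATA sites (3.57% against 1.84%, adjusted p = 0.0204), by two-sided Fisher's exact tests adjusted over 12 motifs. They held fewer ETS cores (2.45% against 5.80%, adjusted p = 1.04e-04) and fewer GC boxes (6.01% against 25.4%, odds ratio 0.188, adjusted p = 2.08e-43, same exact test). Without peaks near any transcript start, only the GC box still passed, with its difference at -9.51 in place of -19.4 points. In windows of 40 to 60% GC it was -4.71 points, PU box, MYB and GATA did not pass, and the CCAAT box did (-4.65 points, adjusted p = 0.0292, exact), as it also did with members at least 1 kb from a PTBP1 peak (-2.73 points, adjusted p = 0.0499, exact). With 100 bases either side of the summit, C/EBP (4.58 points, adjusted p = 7.43e-04, exact) and MEIS (3.74 points, adjusted p = 0.00939, exact) also passed. The PU box also did not pass with only the strongest peak per gene (3.23 points, adjusted p = 0.0849, exact). Runs of at least 12 pyrimidines, the kind of sequence that PTBP1 binds in RNA, were at 286 member summits (18.9%, 17.0 to 21) and 208 shared summits (19.2%, 16.9 to 21.6), a difference that did not pass (two-sided Fisher's exact test, p = 0.879).

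Inside genes, members were mainly intronic. By the canonical transcript of the host gene, 1208 summits (79.8%) were in introns, 24 in 3′ UTRs, 22 in coding exons, 19 in 5′ UTRs and 10 in exons of noncoding transcripts, and 230 (15.2%) lay outside the canonical transcript. Among these 230 were summits beyond the 3′ end of the gene that the peak overlapped, as at ENSG00000258082 and XNDC1CP. Intron 1 held 458 members (30.3%), intron 2 held 219 and later introns 531 (35.1%). When the canonical transcript of every overlapping gene was counted, and not that of the host alone, 88 members had an exonic summit, fewer than among shared gene-body peaks (5.82% against 11.9%, odds ratio 0.458, adjusted p = 1.07e-07 by two-sided Fisher's exact test over 6 location comparisons). Intron 1 took 35.7% of members inside the canonical transcript (33.1 to 38.4) and 37.8% of shared peaks (34.5 to 41.2), which did not pass (adjusted p = 0.349, same exact test). Among intronic members, 37.9% were in intron 1, which made up on average 32.9% of the intron length of their transcripts, and among intronic shared peaks 44% were, with an average of 36.4%. This comparison among intronic peaks was not tested.

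Annotated transcript starts other than the gene's own 5′ end were within 1 kb of 296 members (19.6%), against 534 shared gene-body peaks (49.2%) and 31.9% of all gene-body RUNX1 peaks (odds ratio 0.251, adjusted p = 2.47e-56, two-sided Fisher's exact test). The host was protein-coding for 1272 members (84.1%, against 89.7% of shared peaks, adjusted p = 5.39e-05, exact), a lncRNA alone for 228 (15.1%) and of another type for 13, and 166 members overlapped more than 1 gene. Without peaks near transcript starts, the difference in protein-coding hosts did not pass the exact test (-1.92 points, adjusted p = 0.338).

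**Figure D4:**
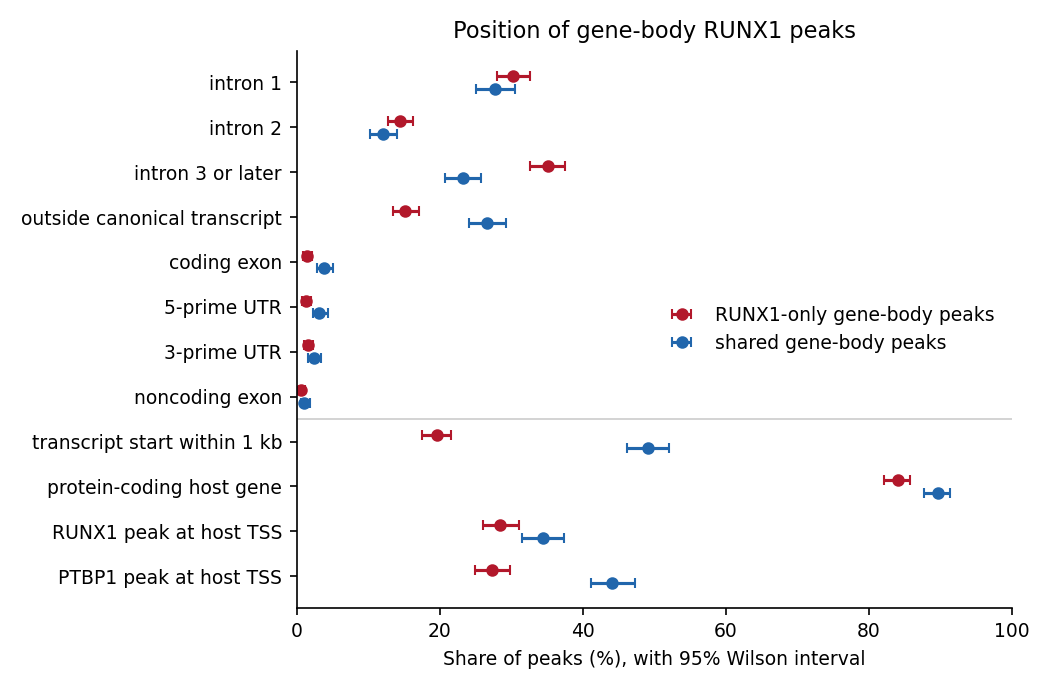
Share of RUNX1-only (red) and shared (blue) gene-body peaks (%), with 95% Wilson intervals, by summit position in the canonical transcript (above the line) and by features of the peak and its host gene (below). Transcript starts lie within 1 kb of 19.6% and 49.2%, and a PTBP1 peak stands at the host TSS for 27.3% and 44.1%.

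The TSS of the host genes is described with no test, since its peaks come from the same lists that separated members from shared peaks. Among members with a protein-coding host, 363 of 1272 (28.5%) had a RUNX1 peak at the host TSS, beside 335 of 974 shared gene-body peaks (34.4%) and 21.3% of all protein-coding genes. A PTBP1 peak stood at the host TSS for 347 members (27.3%) and 430 shared peaks (44.1%), beside 26.4% of all protein-coding genes. Peaks of a gene share its TSS, and with only the strongest peak per gene members and shared peaks were -4.27 points apart for RUNX1 and -14.4 points for PTBP1.

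In all, 1103 of 20033 protein-coding genes overlapped a member (5.51%). They were long, with a median of 100 kb against 27.5 kb for all protein-coding genes, and the share of genes with a member was 0.359%, 2.22%, 5.93% and 13.5% from the shortest to the longest of 4 equal groups. Of these 1103 genes, 726 (65.8%) had neither a RUNX1 nor a PTBP1 peak at the TSS, beside 69.7% of all protein-coding genes, 215 had both, 86 a RUNX1 peak alone and 76 a PTBP1 peak alone. Members were in 10.8% of the 797 genes with a RUNX1 peak alone at the TSS, 6.20% of the 3469 with both, 5.20% of the 13955 with neither and 4.19% of the 1812 with PTBP1 alone. Median gene length in these 4 groups was 42.9, 27.6, 27.6 and 21.8 kb, in that order. The part of gene length in these shares was not tested.

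Strength among the 15 named members ran from 62.4 to 165 in fold enrichment, and 14 of them were intronic. The strongest was in intron 19 of EGFLAM, an extracellular matrix gene of the retina, at chr5:38452091-38454389, with 219 fragments on a background of 0.330, and a PTBP1 peak lay 943 bases away. MED12L, a relative of the Mediator subunit MED12, held a fold of 105 in intron 11, and its nearest PTBP1 peak was 404804 bases away. DYNC1LI2, which encodes a light intermediate chain of dynein, had 91.0 in intron 3 with no RUNX motif, and the zinc finger gene ZNF532 had 85.0 in intron 2. DMWD (74.4, intron 1) had no motif and a PTBP1 peak 949 bases away.

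OTUD7B, a deubiquitinase gene, had 74.4 in intron 1. DMRT1, a regulator of testis development, had 72.2 in intron 3 and ALG1L2 had 68.4 in intron 5, both without a motif. Next were 2 lncRNA genes, LINC03002 (67.7) and LINC01954 (66.9), both in intron 1, and a peak of 66.9 shared by the overlapping genes OPRM1 (the mu opioid receptor), IPCEF1 and ENSG00000288520. GALNT18, of the enzymes that start O-linked glycosylation, ANKFY1, an effector of the endosomal GTPase Rab5, and MFSD2B, a sphingosine-1-phosphate exporter of red cells and platelets, had 64.7 each. ARHGEF12, a known KMT2A fusion partner, had 62.4 in intron 1. Of the 15, 6 had a RUNX1 peak at the host TSS, 9 were over 100 kb from a PTBP1 peak and 2 were within 1 kb of it.

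Most host genes held a single member. A single member was counted in 905 protein-coding genes, at least 2 in 198 (18.0%) and at least 3 in 37, which together held 128 distinct members, since overlapping genes can share them. The gene with most was RUNX1 itself, with 8 members among its 11 RUNX1 peaks. GENCODE places the 5′ end of RUNX1 1217 kb from its 3′ end, and from 5′ to 3′ its members had fold enrichments of 31.6, 9.77, 13.5, 5.59, 11.8, 15.8, 7.52 and 13.5. In this order, the peaks from 31.6 to 5.59 lay outside the canonical transcript, beyond its 5′ end, so the count rests on the long gene span. The 11.8 and 5.59 peaks stood on a raised background of 5.44 fragments, with 75 and 35 fragments at the summit. The 11.8 peak, at chr21:35048795-35049454, had its summit in the 5′ UTR of the canonical transcript, covered an annotated transcript start inside the gene and held 2 RUNX motifs, while no RUNX1 or PTBP1 peak was at the gene's own 5′ end.

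SYN3, a synapsin gene, and TG, which encodes thyroglobulin, held 6 members each, with fold enrichments of 8.27 to 43.6 and 7.52 to 18.8. The 18.8 peak of TG, with 69 fragments, stood on a raised background. SLA, an adaptor that dampens antigen receptor signalling, lies inside TG on the opposite strand, and its 4 members are also 4 of those of TG. LCP2, the SLP-76 adaptor of blood cell signalling, held 5 members (7.52, 11.3, 35.3, 10.5 and 45.1 from 3′ to 5′), which were all of its RUNX1 peaks, and had no PTBP1 peak. STK10, a lymphocyte-oriented kinase gene, held 5 members of 10.5 to 30.8 among 8 RUNX1 peaks and was the only 1 of these 10 genes with a RUNX1 peak at its TSS. SMAD3, a transducer of TGF-β signals, held 5 members of 11.3 to 26.3, all in intron 1. CDCP1, a membrane substrate of Src kinases, held 4 members of 14.3 to 41.4, all in intron 4 and 3 of them with a motif. RIN3, a Rab5 exchange factor, held 4 of 9.77 to 25.6, and ENSG00000250349 held 4 of 7.52 to 19.5, all 4 with a motif.

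**Figure D5:**
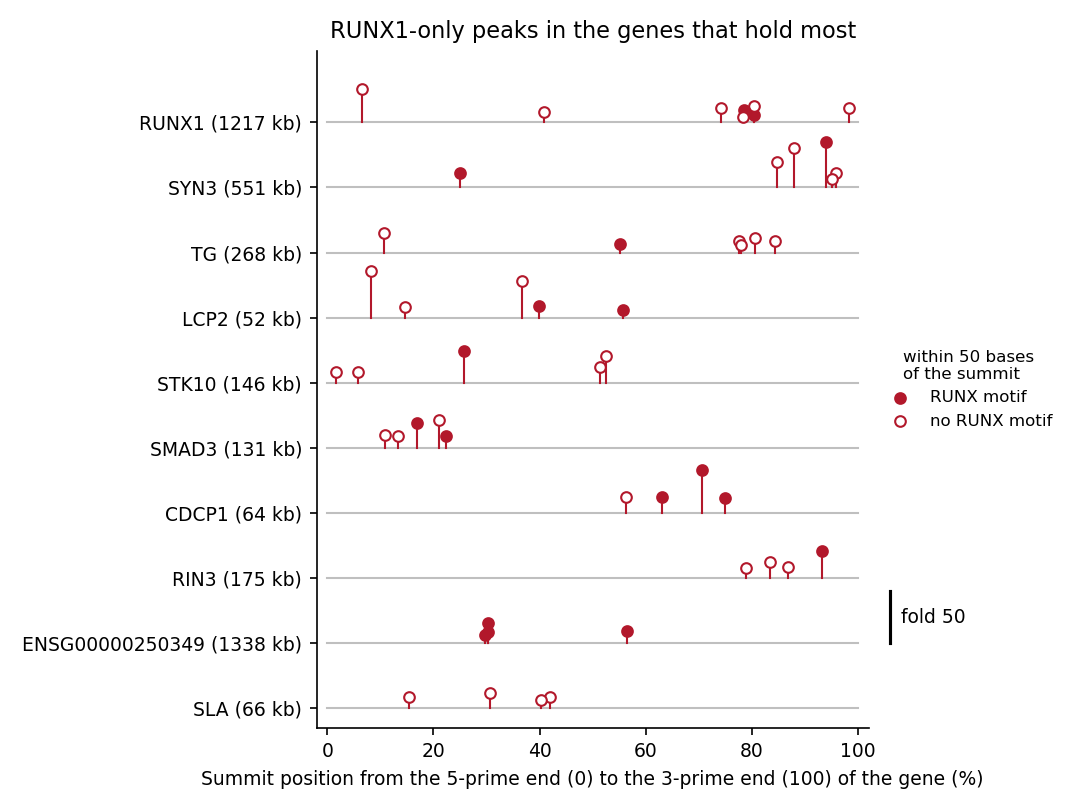
Summit position of each RUNX1-only peak in the 10 protein-coding genes with most of them, as a percentage of the way from the 5′ to the 3′ end, with stem height proportional to fold enrichment and filled points for summits with a RUNX motif. RUNX1 holds 8 such peaks, and the 5 of SMAD3 lie near its 5′ end, in intron 1.

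By gene lists, members were found in 6 of 16 growth factor and cytokine receptor genes (37.5%) beside 5.51% of all protein-coding genes, and the median length of the listed genes was 48.1 kb. FLT3 and KIT, receptors of blood progenitors, each held 1 member with a RUNX motif, of 25.6 (33 fragments, intron 15) and 22.6 (29 fragments, intron 1). Neither had a RUNX1 or PTBP1 peak at its TSS, and the nearest PTBP1 peaks were 410132 and 1260153 bases away. IGF1R (20.3) held 1 member and INSR 3 (up to 17.3), and CSF1R, the receptor of macrophage growth factor, held 1 of 14.3 in intron 1 without a motif.

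Blood cell signalling genes had members in 8 of 33 (24.2%, median length 89.5 kb). Beside this, 5.51% of all protein-coding genes held a member, and 13.5% of the longest of the 4 length groups. LCP2 was the strongest, and PRKCD, a protein kinase C (21.1), GAB2, a docking adaptor (14.3), and PLCG2, a phospholipase (13.5), followed. Besides RUNX1, its relative RUNX3 (13.5) and the corepressor TLE4 (15.0) held 1 member each. In the 7 factors of the stem cell heptad, 2 held members (28.6%, median length 33.5 kb), RUNX1 and the adaptor LMO2 (18.0, intron 1). Of 22 myeloid transcription factors, 3 did (13.6%, median length 24.0 kb): ETV6 (17.3), IRF1 (14.3, in an intron of an overlapping longer gene) and ZEB2 (11.3).

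Of 20 myeloid surface and adhesion genes, 2 held members (10%, median length 45.2 kb), beside 5.51% of all protein-coding genes. ITGB2, the β2 integrin chain, held 3 members of up to 34.6 and LILRB4 held 1 of 7.52. Among 8 granule genes 0 held a member, and their median length was 7.05 kb.

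Of 23 glycolysis genes, 2 held members (8.70%, median length 32.8 kb), beside 5.51% of all protein-coding genes. PKM, the pyruvate kinase gene, had 2 in intron 1, of 12 (15 fragments, with a RUNX motif) and 26.3 (34 fragments, without), at 3069 and 1186 bases from a PTBP1 peak, besides a shared peak of 48.1 at its TSS. HK2, a hexokinase gene, had 1 of 12.8 (16 fragments) in intron 7, without a motif and 67584 bases from a PTBP1 peak. SLC2A1, a glucose transporter gene of the same list, had 0 members, since all 6 of its RUNX1 peaks overlapped a PTBP1 peak.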

How the data were processed

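The series held 13 libraries, and the deposited RUNX1 (7688) and PTBP1 (9370) peak lists were used. The authors aligned read pairs to hg38 with Bowtie2, filtered on mapping quality, removed duplicates and ran MACS3 with a q-value limit of 1e-07. Whether replicates were pooled, and which control was used, is not given in the sources used here, and the lists were taken as CUT&Tag from the methods. The deposited columns are a score, a fold enrichment ratio, the −log10 p-value and −log10 q-value, and the summit offset. Fold and p-value were solved for fragments and background, which matched the deposited −log10 p-value to within 0.00134. Background varies between the lists (0.330 and 0.720), so a site can be called in the RUNX1 list with fewer fragments than in the PTBP1 list, and lack of a PTBP1 peak is not lack of PTBP1.

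Genes came from GENCODE version 44. Summits were placed in the canonical transcript. Motifs were sought within 50 bases of the summit, and overlapping matches were counted. Two-sided Fisher's exact, sign and binomial tests were used with Benjamini-Hochberg adjustment within families and a threshold of 0.0500. Named genes were the 15 strongest members on the usual background, the 10 protein-coding genes with most members, up to 4 genes per gene list, the members at each limit, those with most motifs, and RUNX1, HK2, PKM and SLC2A1. CSF1R was added after its value was seen. The members, gene lists and tests were chosen with earlier results of these data known. The planned tests of peaks at the host TSS were computed but give no p here, since the rule used the same lists. Some gene list results are not reported here. Procedures were tested on simulated data. Computation was in Python 3.11.15 (scipy 1.17.1, numpy 2.4.6, pandas 2.3.3, pysam 0.24.0, matplotlib 3.10.9).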

Additional observations from a re-analysis of the deposited data

How the results depend on the processing

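Alternatives covered the q-value, peaks on a raised background, distance from PTBP1, the overlap rule, transcript starts, a single peak per gene, the window, the motif, GC content of the summit window and the side of the flank. Of 128 alternative values for the main comparisons, 121 kept their direction and their side of the threshold or, for counts, stayed within 1.5 times. Some of these values could not change. Moving the flank to the right left comparisons without a flank as they were, and TGTGGT alone left the counts of other motifs as they were. The tally also includes the peaks at the host TSS, which are described above without a test. Without peaks near transcript starts, the RUNX motif difference from intergenic peaks was -4.64 points, the protein-coding host difference -1.92 and the number of motifs that differed from shared peaks 1 instead of 5, and in windows of 40 to 60% GC that number was 3. With a single peak per gene, the RUNX1 peak at the host TSS differed by -4.27 points. The pyrimidine difference, which never passed, was 0.305 with a 50% overlap rule and 2.72 with 100 bases either side of the summit. Directions also turned in motif comparisons that did not pass. Member summits against flanks differed for MEIS by 0.247 without transcript starts, 0.179 with the 50% overlap rule, 0.164 with a single peak per gene, 0.727 with the wider window and 0.0951 in the GC range, for CTCF by -0.0822 without transcript starts and for the GC box, which did pass in the main comparison, by -1.24 in the GC range. Members against shared peaks differed for CAGATG by -0.175 at a q-value of 1e-10, -1.71 without transcript starts, -0.0719 with the 50% overlap rule and -3.45 in the GC range, for CTCF by -0.281 with the wider window, and in the GC range for AP-1 by -2.07, C/EBP by -0.929 and MEIS by -0.949. The cause was not tested. No paired analysis was possible because each target has a single list whose columns carry no replicate number, and no replicate could be left out. A planned comparison of repeat-masked summits was not run, since the reference used here does not mark repeats.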

Other observations

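Members were spread over all autosomes and the X chromosome. Their share of the RUNX1 peaks of a chromosome was lowest on chromosome 19 (54 of 577, 9.36%) and highest on chromosome 15 (72 of 243, 29.6%). Chromosomes 3 (107 of 377, 28.4%) and 4 (50 of 202, 24.8%) were also high, and chromosomes 18 (15.0%) and 1 (15.4%) were low. Neighbouring members on a chromosome were a median of 622804 bases apart, and 141 of 1490 neighbouring pairs lay within 12.5 kb.

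The share of members with a RUNX motif was 37.3% of 263 under 10 kb from a PTBP1 peak (31.6 to 43.2, 95% Wilson intervals), 41.3% of 545 at 10 to 100 kb (37.2 to 45.5) and 46.4% of 705 beyond 100 kb (42.7 to 50.1). Median fold enrichment in these groups was 11.3, 12.8 and 13.5, and an annotated transcript start lay within 1 kb of 27.4%, 21.7% and 15.0%. These groups were set after the data were seen, and their part in the motif share was not tested.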
